A study of Mus musculus with 12 samples.

Results

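The genes described here are 10 genes of interleukin 10 (IL-10), SOCS, and STAT3 feedback, namely Il10, Il10ra, Il10rb, Il4ra, Stat3, Socs1, Socs3, Cish, Bcl3, and Sbno2. They were picked by name as an anti-inflammatory feedback set, out of 43626 genes counted in these libraries, and all 10 had enough reads to be tested. Expression was measured by RNA-Seq in mouse bone marrow–derived macrophages (BMDMs), 3 libraries for each of 4 conditions. BMDMs were kept for 6 h with PBS, with 3′-sialyllactose (3′SL) at 100 μg/mL, with LPS at 10 ng/mL, or with both agents at these doses (LPS + 3′SL). The labels call 3′SL, which is lactose that carries a sialic acid, HMO for human milk oligosaccharide, and LPS is a bacterial outer-membrane component that activates TLR4. Doses and time come from the results text of the study, because the treatment text on the labels describes injected mice. Strain, genotype, age, and sex are not stated for these libraries. The study describes its RNA-Seq replicates as biological and independent, but the labels do not tie a library to a mouse or culture, and p-values here measure the spread between these libraries.

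IL-10 binds a receptor made of the chains IL-10RA and IL-10RB. The receptor activates the kinases JAK1 and TYK2, which phosphorylate the transcription factor STAT3. STAT3 then enters the nucleus and induces genes that dampen cytokine output, among them Socs3, Bcl3, and Sbno2. In macrophages exposed to LPS this loop limits inflammation, and loss of IL-10 or of STAT3 in myeloid cells is known to leave such cells overactive. SOCS proteins close shorter loops by binding receptors or JAKs and stopping the signal that induced them.

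Sequence upstream of the start site was searched, since STAT factors bind the palindrome TTCNNNGAA, and is shown for Socs3, Sbno2, Stat3, and Socs1. RefSeq promoters (GRCm38.p6) were at hand for 7 of the 10 members, with 9 start sites in all, and none for Il10, Il10ra, or Il10rb. Each window covered 250 bases before a RefSeq start site. The windows of Socs3, Cish, and Sbno2 lie inside the annotated gene spans given further below, downstream of the outermost annotated start. Below, 5′ to 3′, capitals mark a match to the STAT palindrome in Socs3 and at Sbno2 start site 2, and to the NF-κB consensus at Sbno2 start site 3. Stat3, Socs1, Bcl3, and Il4ra held no match to any motif searched, and the Socs3 window is cut where an annotated exon begins. The windows of Bcl3, Il4ra, Cish, and Sbno2 site 1 are not shown.
Socs3 (chr11:117969452-117969616, minus strand): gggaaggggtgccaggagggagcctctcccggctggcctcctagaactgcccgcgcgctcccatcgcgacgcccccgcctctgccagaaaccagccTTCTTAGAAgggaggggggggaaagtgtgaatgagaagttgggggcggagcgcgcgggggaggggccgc
Sbno2, site 2 (chr10:80101188-80101437, minus strand): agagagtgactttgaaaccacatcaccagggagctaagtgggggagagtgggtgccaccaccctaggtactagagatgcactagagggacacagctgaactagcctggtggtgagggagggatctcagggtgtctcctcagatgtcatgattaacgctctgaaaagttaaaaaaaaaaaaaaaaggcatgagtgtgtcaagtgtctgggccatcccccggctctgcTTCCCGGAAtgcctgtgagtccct
Sbno2, site 3 (chr10:80075440-80075689, minus strand): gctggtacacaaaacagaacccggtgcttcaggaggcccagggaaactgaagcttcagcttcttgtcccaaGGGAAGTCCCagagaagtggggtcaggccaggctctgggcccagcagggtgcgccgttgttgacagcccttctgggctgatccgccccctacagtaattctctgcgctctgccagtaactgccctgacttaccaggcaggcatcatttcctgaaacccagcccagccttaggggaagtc
Stat3 (chr11:100939541-100939790, minus strand): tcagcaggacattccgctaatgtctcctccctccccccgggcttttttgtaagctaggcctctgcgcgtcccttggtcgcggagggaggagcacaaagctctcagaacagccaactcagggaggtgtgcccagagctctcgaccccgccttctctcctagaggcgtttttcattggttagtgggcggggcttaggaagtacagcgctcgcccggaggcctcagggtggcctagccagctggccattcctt
Socs1 (chr16:10785537-10785786, minus strand): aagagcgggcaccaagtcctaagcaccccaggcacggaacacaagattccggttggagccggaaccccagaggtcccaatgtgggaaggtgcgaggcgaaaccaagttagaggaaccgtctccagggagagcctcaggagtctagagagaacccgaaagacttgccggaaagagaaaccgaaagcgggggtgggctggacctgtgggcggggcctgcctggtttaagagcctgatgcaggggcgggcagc

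The STAT palindrome, searched on both strands, lay in 3 of the 9 member windows and in 7.02% of 32851 mouse promoter windows of the same length. In Socs3 it read TTCTTAGAA, 154 to 146 bases before the start site. At Sbno2 site 2 it read TTCCCGGAA, 24 to 16 bases before the start, which also met the stricter form TTCCNGGAA found in 0.913% of all windows. Sbno2 site 1 had TTCGCAGAA, 26 to 18 bases before it. The NF-κB consensus was matched once, as GGGAAGTCCC at Sbno2 site 3, 179 to 170 bases before the start, and in 3.9% of all windows. The AP-1 site TGANTCA was in 0 of the 9 windows and 6.75% of all windows. The CRE half-site TGACG was in the window of Cish alone among members, and in 17.8% of all windows. These matches describe letters in these windows and no binding was measured.

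Depth was even, with 20411741 to 26851890 reads on genes per library. The unit of all levels is CPM, reads scaled to library size with edgeR's TMM factors, which ran from 0.700 to 1.30. The libraries fell into 3 sets of 4 consecutive running numbers, each set with 1 library of every condition, and the values below are listed in the order set 1, set 2, set 3. After condition means were removed, libraries of the same set correlated with r of 0.449 to 0.744 (mean 0.596, 18 pairs across genes), against a mean of −0.296 for 36 pairs from different sets and conditions. Removing the means by itself pushes the second value below 0 when the first is above 0, so the second is not separate information. What the sets are is not described, so the 3′SL comparisons are given a second time within sets, and another fit takes the set as a blocking term. The 7 macrophage markers summed to 17534 to 27944 CPM. The 7 stromal markers summed to 638 to 745 CPM in set 1, 27.8 to 48.3 in set 2, and 69.8 to 117 in set 3. Sums of 4 neutrophil markers were 23.1 to 79.6 CPM with PBS and 36.4 to 150 CPM with LPS, the top value in set 3. Most of each sum was S100a8, with means of 45.7 CPM with PBS and 83.5 CPM with LPS. Means with PBS and with LPS were 0.392 and 0.494 CPM for Ly6g, 0.940 and 0.664 for Elane, and 1.85 and 1.71 for Mpo. No single stromal or neutrophil marker was at 0 throughout, and the part of these cells in the results was not tested. Markers of B, T, mast, dendritic, and NK cells each summed to at most 2.31 CPM. In bulk RNA, fewer cells that express a gene and less RNA per cell cannot be told apart.

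LPS raised the mRNA levels of 9 of the 10 genes, from 3.43-fold for Il10ra to 342-fold for Socs3, and Il10rb was the exception. Called genes are those with a Benjamini-Hochberg adjusted p under 0.05 over the 14308 genes tested (edgeR quasi-likelihood) and at least a 1.5-fold change. By that rule 18.3% of all genes tested were called higher with LPS than with PBS and 20.2% lower. For the same 9 members every LPS library lay above every PBS library, as for 27.3% of all genes. The members' median log2 change was 2.91, against −0.06 for all genes tested. When libraries were scaled by their totals alone, the median of all genes was −0.71, and 9 members were again called.

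**Figure D1:**
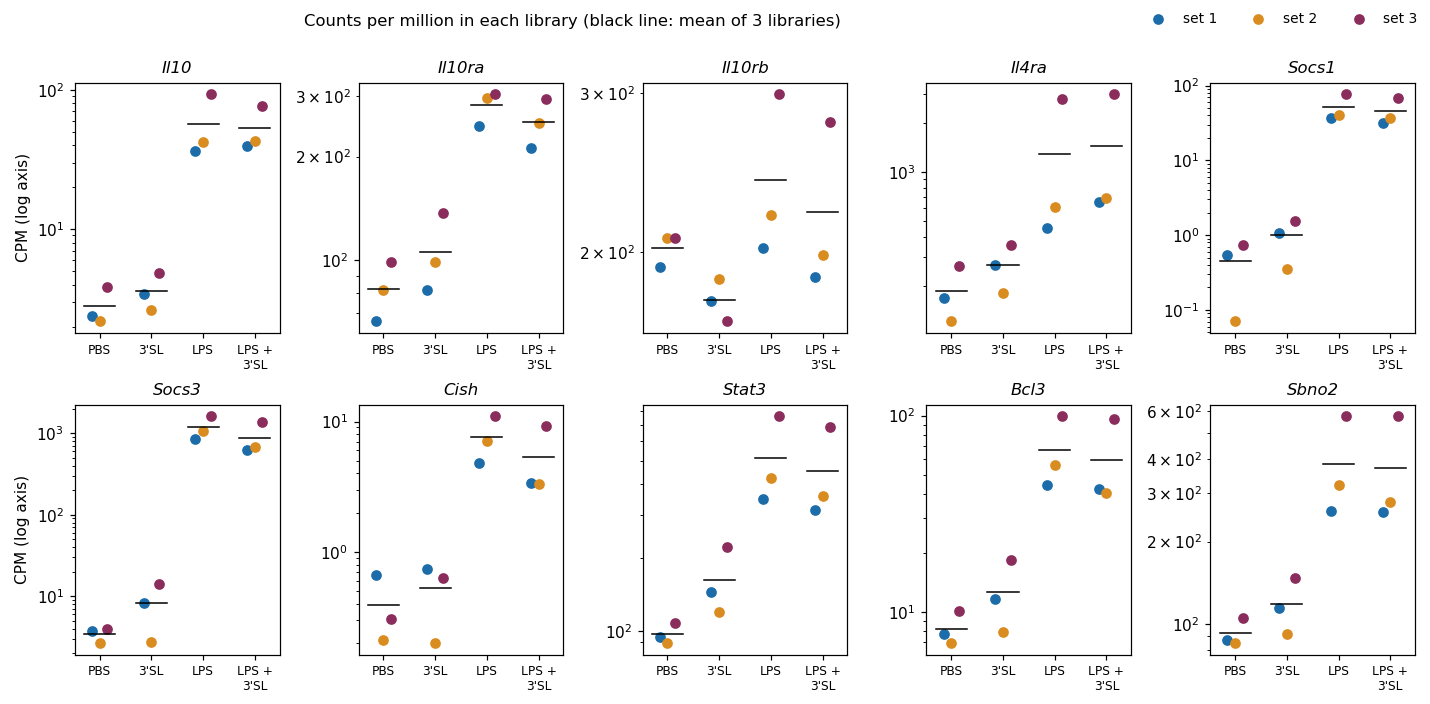
CPM (log axis) of each of the 10 genes in the 12 libraries, 1 panel per gene, with points coloured by library set and a black line at the mean of 3 libraries. All LPS points lie above all PBS points for every gene but Il10rb, and set 3 is highest in both LPS conditions throughout.

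Il10 encodes the ligand of the loop (chromosome 1, 131019845 to 131024974, plus strand, GRCm38). It read 2.38, 2.18, and 3.81 CPM with PBS and 36.2, 42.0, and 93.1 CPM with LPS, in sets 1, 2, and 3. The groups were far apart, and within LPS the set 3 library stood well above the other two. The change was 20.4-fold (log2 4.35 ± 0.45 SE, adjusted p = 2.35e-05, edgeR). With 3′SL alone, Il10 was at 3.42, 2.63, and 4.81 CPM, which overlapped PBS. LPS + 3′SL gave 39.4, 42.9, and 75.8 CPM, inside the range of LPS alone. Against LPS the log2 difference was −0.11, with a 95% interval of −0.97 to 0.74. With the sets as a block this was −0.06, with an interval of −0.35 to 0.23, which leaves out changes beyond 1.5-fold in either direction at this depth. Within sets, the log2 ratio of LPS + 3′SL to LPS was 0.12, 0.03, and −0.30, so the libraries did not share a direction.

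Among the receptor chains, Il10ra (chromosome 9, 45253837 to 45269149, minus strand) encodes the chain that binds IL-10 with high affinity. It measured 66.2, 81.6, and 98.9 CPM with PBS and 246, 296, and 304 CPM with LPS, a 3.43-fold rise without overlap (log2 1.78 ± 0.21 SE, adjusted p = 6.43e-05, edgeR). Its 3 LPS libraries were close to each other, unlike those of Il10. With 3′SL it stood at 81.6, 98.5, and 137 CPM, and with LPS + 3′SL at 212, 250, and 295 CPM. Both ranges overlapped those without 3′SL. Il10ra was higher with 3′SL than with PBS in each set (log2 ratios 0.30, 0.27, and 0.47) and lower with LPS + 3′SL than with LPS in each set (−0.21, −0.24, and −0.05).

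Il10rb (chromosome 16, 91406164 to 91425834, plus strand) encodes the second chain, shared with the receptors of IL-22 and the interferon lambdas. Its level was 192, 207, and 207 CPM with PBS and 202, 220, and 299 CPM with LPS. The groups overlapped, and the log2 difference of 0.25 had an interval of −0.13 to 0.63 (adjusted p = 0.267, edgeR). This gene's direction depended on scaling, since total counts gave −0.42 (adjusted p = 0.00711, edgeR), where the median of all genes was −0.71. With 3′SL it was 176, 186, and 167 CPM, below every PBS library, as were 8.53% of all genes, and with LPS + 3′SL it was 187, 198, and 279 CPM. The log2 difference of 3′SL from PBS was −0.19, with an interval of −0.58 to 0.19. Of the 50-nucleotide words of its transcripts, 13.9% occur in other genes, nearly all in the read-through gene Gm21970 on the same strand, so reads there may have been counted as ambiguous.

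Il4ra (chromosome 7, 125552120 to 125579474, plus strand) encodes the alpha chain of the IL-4 and IL-13 receptors, which signals through STAT6, and it is known to be induced by IL-10 in macrophages. Among the members it had the largest SD relative to its mean in both LPS conditions. With PBS it read 168, 121, and 265 CPM, and with LPS 453, 611, and 2778 CPM, so the set 3 library was several times the other two. The change was 6.93-fold with an interval of 2.07 to 23.1 (adjusted p = 0.0136, edgeR). Without the LPS library of set 3 the log2 change fell from 2.79 to 1.53 and was no longer called (adjusted p = 0.0821, edgeR), and the call was also lost without the PBS library of set 2 (adjusted p = 0.0552). With the sets as a block the gene was called. LPS + 3′SL gave 653, 692, and 3001 CPM, again with set 3 apart, and 3′SL alone 267, 180, and 358 CPM. Il4ra was the only member whose level was higher with 3′SL in every set both without LPS (0.67, 0.57, and 0.43) and with LPS (0.53, 0.18, and 0.11), as log2 ratios, and neither difference was called.

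Stat3 (chromosome 11, 100885098 to 100939540, minus strand) encodes the transcription factor at the centre of the loop. PBS libraries had 94.4, 89.2, and 108 CPM, and those with LPS 348, 424, and 763 CPM. No LPS library came near PBS, and the change was 5.26-fold (log2 2.40 ± 0.37 SE, adjusted p = 3.80e-04, edgeR). The 3′SL libraries had 145, 120, and 222 CPM, all above all 3 PBS libraries. With LPS + 3′SL the values were 313, 359, and 685 CPM, each a little below the LPS library of its set. Its 3′ end shares 72 exonic nucleotides with Stat5a on the other strand, and whether counting used the strand is not given in the sources used here.

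Per kilobase of exons, the inhibitors had the lowest levels with PBS, and Socs3 and Socs1 had the largest changes with LPS. Socs3 (chromosome 11, 117966079 to 117970047, minus strand) encodes the STAT3 target that blocks gp130, the signalling chain of the IL-6 receptor, but not the IL-10 receptor. It rose from 3.73, 2.63, and 3.98 CPM with PBS to 860, 1051, and 1635 CPM with LPS. That was 342-fold, with an interval of 122 to 957 (log2 8.42 ± 0.67 SE, adjusted p = 4.20e-06, edgeR), and no member changed more. With 3′SL alone it was 8.15, 2.74, and 13.9 CPM, so sets 1 and 3 lay above all PBS libraries and set 2 lay among them. LPS + 3′SL gave 618, 674, and 1365 CPM, each below LPS in its own set but overlapping as groups.

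Socs1 (chromosome 16, 10782240 to 10785536, minus strand) encodes an inhibitor that binds JAKs and restrains interferon and TLR signalling. Its PBS libraries held only 19, 2, and 22 reads, or 0.55, 0.07, and 0.74 CPM, against 36.9, 40.3, and 77.0 CPM with LPS. The fitted change was 111-fold with an interval of 38.1 to 323 (adjusted p = 2.18e-05, edgeR). With 3′SL it was 1.08, 0.36, and 1.55 CPM, and with LPS + 3′SL 31.1, 36.4, and 67.4 CPM. The ratio of 3′SL to PBS in set 2 rested on 9 and 2 reads, 5.10-fold with an exact binomial interval of 1.06 to 48.5 that covers counting error only.

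Cish (chromosome 9, 107296026 to 107302784, plus strand) encodes CIS, a SOCS family member that acts on STAT5-coupled receptors. It was scarce throughout, at 0.66, 0.21, and 0.30 CPM with PBS (6 to 23 reads) and 4.83, 7.07, and 11.05 CPM with LPS. The LPS libraries lay above every PBS library, a 19.0-fold rise (log2 4.25 ± 0.64 SE, adjusted p = 3.07e-04, edgeR). The 3′SL libraries had 0.74, 0.20, and 0.64 CPM, and those with LPS + 3′SL 3.40, 3.31, and 9.22 CPM. Its exons overlap the genes Gm17040 and Gm17041 on the other strand.

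Downstream in the nucleus, Bcl3 (chromosome 7, 19808462 to 19822770, minus strand) encodes an atypical IκB protein that holds p50 homodimers on DNA. It was at 7.67, 6.91, and 10.1 CPM with PBS and 44.1, 56.2, and 99.6 CPM with LPS, an 8.11-fold rise without overlap (log2 3.02 ± 0.45 SE, adjusted p = 2.66e-04, edgeR). With 3′SL it was 11.7, 7.92, and 18.4 CPM, and with LPS + 3′SL 42.3, 40.1, and 95.9 CPM. The set 2 library with 3′SL lay among the PBS libraries, the other two above them.

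Sbno2 (chromosome 10, 80056992 to 80105571, minus strand) encodes a helicase-family co-repressor known as a STAT3-induced mediator of the IL-10 response. Its PBS libraries had 87.2, 84.9, and 105 CPM and its LPS libraries 258, 322, and 576 CPM. The rise was 4.18-fold (log2 2.06 ± 0.37 SE, adjusted p = 8.89e-04, edgeR). The 3′SL libraries read 114, 91.8, and 148 CPM, overlapping PBS. LPS + 3′SL libraries read 256, 279, and 577 CPM, and in sets 1 and 3 these were nearly the values of LPS alone.

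Set 3 had the highest LPS library for all 10 genes, and the highest LPS + 3′SL library for all 10. Of all genes tested, 42.9% and 43.3% were highest in set 3 in these conditions. With PBS and with 3′SL it held the highest value of 8 members each, against 39.3% and 39.7% of all genes. Under total counts 9 of 10 members were still highest in set 3 in each LPS condition, where 23.1% and 21.2% of all genes were. Genes read from 1 library are not independent observations. Set 3 also had the lowest TMM factors with LPS, 0.700 and 0.724.

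**Figure D2:**
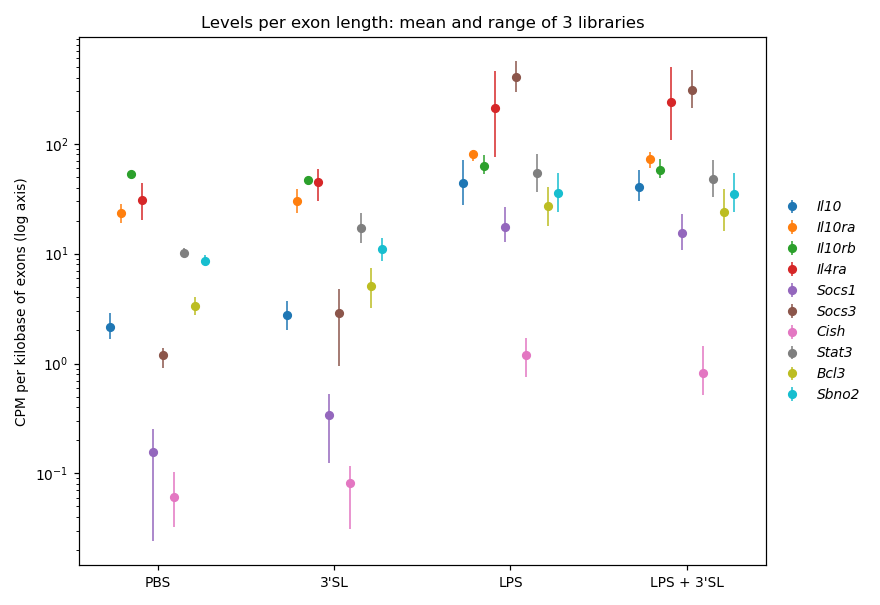
CPM per kilobase of exons (log axis) of the 10 genes in each condition, as the mean with a line from the lowest to the highest of 3 libraries. Socs3 goes from eighth of 10 with PBS to the top with LPS, while Cish is lowest in every condition.

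Per kilobase of exons, the scale on which different genes can be set side by side, the receptor chains led with PBS. Il10rb had 53.1 ± 2.24 CPM per kilobase (SD, n = 3), Il4ra 30.8 ± 12.3, and Il10ra 23.5 ± 4.68. Il4ra and Il10ra overlapped, and Il10rb stood above both. Stat3 (10.2 ± 1.02) and Sbno2 (8.62 ± 1.02) overlapped each other, as did Bcl3 (3.32 ± 0.66) and Il10 (2.13 ± 0.68). Socs3 came next at 1.19 ± 0.25, then Socs1 at 0.156 ± 0.119 and Cish at 0.061 ± 0.037, which overlapped. With LPS the order was led by Socs3 at 409 ± 140 CPM per kilobase, followed by Il4ra at 213 ± 216, Il10ra at 80.6 ± 9.04, Il10rb at 63.1 ± 13.6, and Stat3 at 53.7 ± 23.2. Il10 reached 43.6 ± 23.9. Neighbours in this order overlapped down to Socs1 (17.7 ± 7.64), and only Cish (1.19 ± 0.49) stood clear at the bottom. With 3′SL and with LPS + 3′SL the first and last places in the order were held by the same genes as with PBS and with LPS.

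In BMDMs given 3′SL, LPS raised the same 9 members, and 14.3% of all genes were called higher and 14.8% lower. Socs3 rose 107-fold (log2 6.74 ± 0.62 SE, adjusted p = 1.79e-05, edgeR), Socs1 44.9-fold, Il10 14.5-fold, Cish 9.95-fold, and Il4ra 5.398-fold (adjusted p = 0.0312, edgeR). Bcl3 rose 4.69-fold, Sbno2 3.14-fold, Stat3 2.78-fold, and Il10ra 2.39-fold. Il10rb differed by log2 0.32 (interval −0.06 to 0.71, adjusted p = 0.175, edgeR), although its LPS + 3′SL libraries all lay above its 3′SL libraries. That held for all 10 members and for 22.4% of all genes. The median log2 change of the members was 2.33, against −0.07 for all genes. Without set 2, 5 members were called, and Il10ra, Il4ra, Stat3, and Sbno2 were no longer among them.

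**Figure D3:**
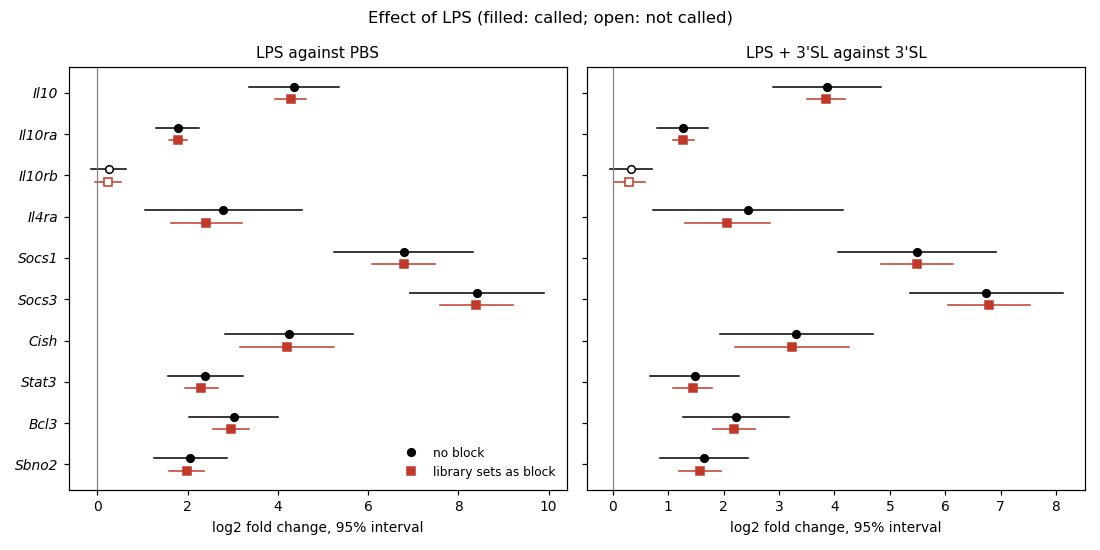
log2 fold change with its 95% interval for the 10 genes with LPS against PBS (left) and with LPS + 3′SL against 3′SL (right), without a block (black) and with library sets as a block (red). Filled symbols are called genes. Every gene but Il10rb is called in both comparisons by both fits.

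Whether 3′SL alone moved these genes was asked next. No member was called against PBS by edgeR, as for all genes (0 of 14308, 0%). Before adjustment, Socs3 was the 1 member under 0.05 and at least 1.5-fold, among 620 genes. DESeq2 called 88 genes and no member. The estimates lay above 0 for 9 of 10 members, with a median log2 difference of 0.47 against 0.00 for all genes, of which 50.2% lay above 0. They ran from 0.35 for Sbno2 to 1.26 for Socs3, whose interval was 0.11 to 2.41 (adjusted p = 0.472, edgeR), and −0.19 for Il10rb. Stat3 differed by 0.74 (interval −0.05 to 1.53, adjusted p = 0.536, edgeR), Bcl3 by 0.62 (−0.31 to 1.56), and Socs1 by 1.11 (−0.42 to 2.64). These estimates moved with single libraries, in fits with no block that kept the other libraries of the set. Leaving out 1 library at a time, Socs3 ran from 0.63 to 1.67, Socs1 from 0.62 to 1.61, Bcl3 from 0.22 to 0.87, Il4ra from 0.23 to 0.89, Cish from 0.069 to 1.02, Il10 from 0.082 to 0.67, Il10ra from 0.095 to 0.51, and Sbno2 from 0.12 to 0.50. The lowest value came without the 3′SL library of set 3 for each of these but Cish, for which it came without the 3′SL library of set 1. Stat3 was the only member with every 3′SL library above every PBS library, as were 9.02% of all genes.

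With the library sets as a block, Stat3 rose 1.61-fold with 3′SL (log2 0.68 ± 0.16 SE, adjusted p = 0.0337, edgeR). It was the only member called, and 1.98% of all genes were called higher. DESeq2 with the same block also called Stat3 (log2 0.69, adjusted p = 0.00173), and it called 2.94% of all genes higher. The within-set log2 ratios of Stat3 were 0.62, 0.43, and 1.04. Without the set 3 library with 3′SL, the log2 difference of the fit with no block was 0.41, but that fit kept the PBS library of set 3. With all of set 3 left out, the fit with no block gave 0.51. In the blocked fit, leaving out set 1 or set 2 ended the call (adjusted p = 0.167 and 0.160, edgeR), and leaving out set 3 gave 0.51 (adjusted p = 0.00964, edgeR), which is under 1.5-fold. Il10ra had an adjusted p of 0.0431 in the blocked fit with a log2 difference of 0.35, also under 1.5-fold. Socs3 (log2 1.14, adjusted p = 0.0615) and Bcl3 (0.57, adjusted p = 0.0844) missed the threshold in the blocked edgeR fit. The Socs3 ratios within sets were 1.13, 0.06, and 1.81, so set 2 showed almost none of the difference.

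With LPS present, no member was called for LPS + 3′SL against LPS by edgeR (0% of all genes), by edgeR with the block (1.45% of all genes in either direction), or by DESeq2 (113 genes). Before adjustment, 0 members and 402 genes were under 0.05 and at least 1.5-fold in edgeR. The median log2 difference of the members was −0.16, against −0.01 for all genes, and 9 of 10 members lay below 0. The lowest were Cish at −0.53 (interval −1.74 to 0.68) and Socs3 at −0.42 (−1.48 to 0.65). Libraries of the 2 conditions overlapped for all 10 members, while 6.5% of all genes were lower without overlap. Blocking by set narrowed the interval of Socs3 to −1.03 to 0.10 and that of Stat3 to −0.53 to 0.16, and neither interval left out 0. Without the LPS library of set 3, in a fit with no block that kept its LPS + 3′SL library, the estimates of Il10, Stat3, Bcl3, Socs1, Sbno2, and Il10rb turned positive. With all of set 3 left out, only that of Il10 turned positive (0.083).

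**Figure D4:**
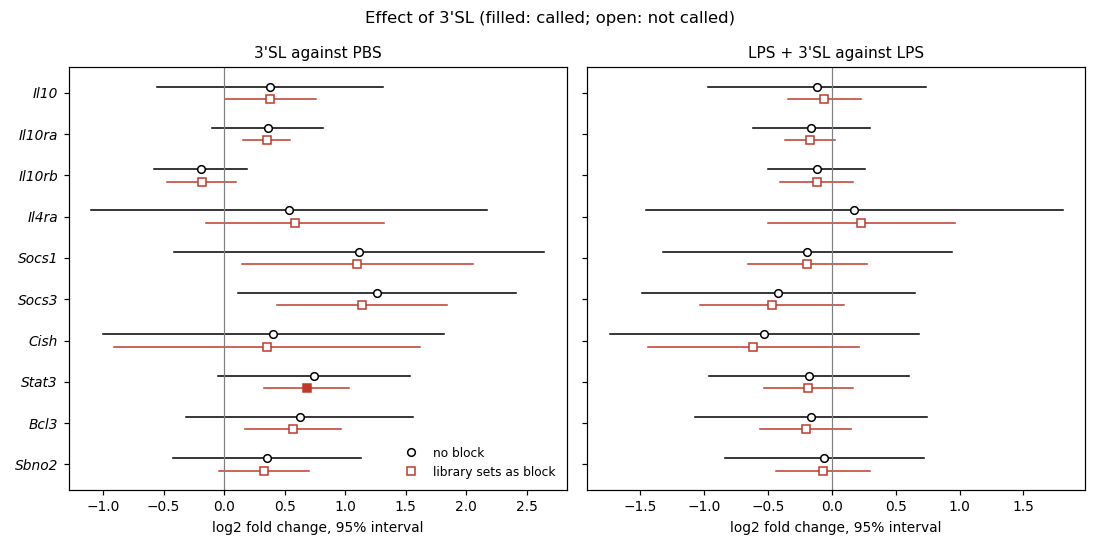
log2 fold change with its 95% interval for the 10 genes with 3′SL against PBS (left) and with LPS + 3′SL against LPS (right), without a block (black) and with library sets as a block (red). Filled symbols are called genes. Stat3 with 3′SL against PBS, in the blocked fit, is the only filled symbol.

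Libraries of the same set can be compared directly. The 3′SL library was above the PBS library in all 3 sets for 8 of 10 members, a pattern of 25.8% of all genes. The LPS + 3′SL library was below the LPS library in all 3 sets for 7 members, a pattern of 25.7% of all genes. Both held for 5 members, Il10ra, Socs1, Socs3, Stat3, and Bcl3, and for 6.55% of all genes. Members read from the same libraries are not independent observations, so these counts are descriptions. Stat3 had log2 ratios of −0.15, −0.24, and −0.16 with LPS, and Socs3 had −0.48, −0.64, and −0.26. For Socs1 they were −0.25, −0.15, and −0.19, and for Bcl3 −0.06, −0.49, and −0.05. These are ratios of 2 libraries and carry no error, and many of them are small.

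**Figure D5:**
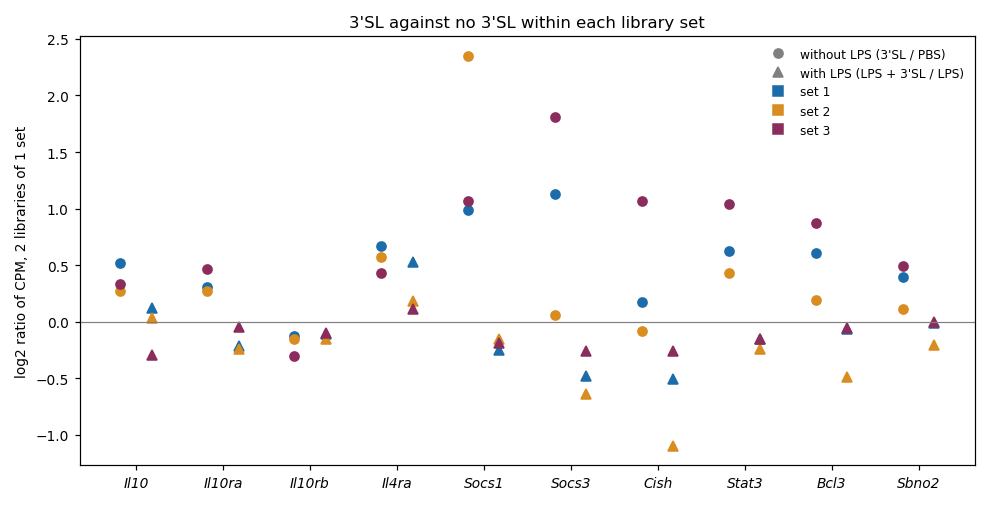
log2 ratio of CPM with 3′SL to CPM without it, for the 10 genes in each library set (colours), without LPS (circles) and with LPS (triangles). For Il10ra, Socs1, Socs3, Stat3, and Bcl3 all 3 circles lie above 0 and all 3 triangles below it.

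The difference between the effects of 3′SL with and without LPS was tested as an interaction. No member was called by edgeR, nor any gene (0%), and DESeq2 called 44 genes and no member. Before adjustment, 1 member, Socs3, was among 567 genes that were under 0.05 and at least 1.5-fold in edgeR. The estimate for Socs3 was −1.68 on the log2 scale (interval −3.24 to −0.11, adjusted p = 0.806, edgeR). Stat3 was at −0.92 (interval −2.03 to 0.19). With the sets as a block, 1.55% of all genes and 0 members were called by edgeR, and the adjusted p of Il10ra (−0.52), Socs3 (−1.61), and Stat3 (−0.87) were 0.0633, 0.0745, and 0.0799. DESeq2 with the block called Stat3 (−0.88, adjusted p = 0.00953), among 506 genes called in either direction (3.54% of all genes), so this call depended on the tool. In that DESeq2 fit Il10ra had an adjusted p of 0.0163 at −0.54, which is under 1.5-fold.

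Around the members, 75 further genes of the pathway were followed in 5 lists drawn up by function, of which 70 were tested. Of 23 other receptor and JAK-STAT genes, LPS raised 15 and lowered 2, with a median log2 change of 1.49. Of all genes tested, 18.3% were called higher with LPS and 20.2% lower, with a median of −0.06. Jak2 rose most (4.29), then Csf3r, the G-CSF receptor (3.85), and Stat2 (3.50). The kinases that serve the IL-10 receptor rose less, Tyk2 by 1.80 and Jak1 by 1.10. Il6st, which encodes gp130, fell by 0.79, and Ifngr1, a chain of the interferon gamma receptor, fell by 0.87.

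Of 16 other signalling inhibitors, 7 rose and 2 fell with LPS, with a median of 0.49. Among all genes 18.3% were called higher and 20.2% lower. Usp18, which holds back the type I interferon receptor, rose by 5.58, Socs2 by 1.85, and the phosphatase gene Ptprc by 1.68. Pias3, which encodes an inhibitor of STAT3 binding to DNA, fell by 1.21, and Socs5 by 0.74. In cells given 3′SL, 5 of the 16 rose and 3 fell with LPS, where 14.3% and 14.8% of all genes did, and Socs2 was at 1.05 without a call (adjusted p = 0.176, edgeR).

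Among 12 genes known to respond to IL-10 or STAT3, 8 rose and 1 fell with LPS, with a median of 2.66. For this list and the next ones, the shares of all genes are again 18.3% called higher and 20.2% lower. Pim1, a kinase induced by STATs, rose by 4.17, Tnip3 by 3.76, and Il1rn, which encodes the IL-1 receptor antagonist, by 3.42. The repressor genes Nfil3 and Etv3 rose by 2.89 and 1.55, and the haemoglobin scavenger receptor Cd163 fell by 0.91. Of 12 regulators of Il10 transcription, 6 rose and 1 fell, with a median of 0.39. They were led by Nfkb1 (2.86), Map3k8, the kinase of the ERK branch (2.81), and Cebpb (2.36), Maf rose by 0.90, and Sik1 fell by 0.63. Of 12 ligands of STAT3-coupled receptors, 7 were tested and 6 rose. Il6 went from 1 to 10 reads per PBS library to 1370 to 2167 reads with LPS, Csf3 from 0 to 1 read to 104 to 161, and Il27 rose by 6.69 on the log2 scale.

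None of these lists had a gene called by edgeR for either 3′SL comparison or the interaction. With the sets as a block, the list genes called for 3′SL against PBS were Hmox1 (log2 1.64, adjusted p = 0.00436), Dusp1 (0.64, adjusted p = 0.0129), and Jak2 (0.59, adjusted p = 0.0140). All were higher, out of 70 list genes tested, and 1.98% of all genes were called higher. For LPS + 3′SL against LPS the list genes called were Il21r (0.59, adjusted p = 0.0109), which was higher, and the ligands Il6, Csf3, and Il27, which were lower. In that blocked comparison 1.45% of all genes were called in either direction. Il6 was at 66.9 to 105 CPM with LPS and 9.41 to 29.8 CPM with LPS + 3′SL, without overlap (blocked log2 −2.38, adjusted p = 0.00125, edgeR). Csf3 had 12 to 53 reads with LPS + 3′SL, against 104 to 161 with LPS, and Il27 fell with a blocked log2 interval of −1.30 to −0.70 (adjusted p = 0.00385, edgeR). Jak2 was the list gene called for the interaction in the blocked fit (−0.90, adjusted p = 0.0166, edgeR), where 1.55% of all genes were called.

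Over the 12 libraries, log2 CPM of Il10 was most like that of Zfp36, which encodes the mRNA-decay factor tristetraprolin, then Sdc4 and Slc31a2, each with a Pearson r of 0.997. Socs3 was most like Slco3a1 (r = 0.999), Mlkl, and Src (both 0.998). Cish was most like Vcan (0.993), S100a11 (0.992), and Col27a1 (0.990). The libraries fall into 6 with LPS and 6 without, and share their scaling, so these values are descriptions. Among the members, r with Il10 ran from 0.904 for Il4ra to 0.991 for Socs3, and was 0.649 for Il10rb.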

How the data were processed

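Per the labels, stranded libraries were made from polyadenylated RNA. The authors deposited raw counts of reads per gene for each of 12 libraries, as whole numbers without normalization. The submitters' processing notes name FastQC, Trimmomatic, STAR, HTSeq, and DESeq2, and versions, genome build, and strand setting are not given in the sources used here. Gene identifiers were matched to GENCODE M21 (GRCm38), with 42462 of 43626 found. Reads not assigned to 1 gene were left out of library sizes.

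The analysis used edgeR 4.0.16 (R 4.3.3). Genes kept by filterByExpr (14308) were fitted over all libraries by quasi-likelihood, with 1 mean per condition and TMM factors. Called genes had a Benjamini-Hochberg adjusted p under 0.05 and at least 1.5-fold change. SE and 95% intervals come from the same fit. With 3 against 3 libraries an exact permutation test cannot go below p = 0.1, so none was run. At this depth a gene with few reads, such as Socs1 with PBS, has a wide counting error. The code was tested on simulated data with no differences between sets and less spread than these libraries. That test does not show which changes could be missed in the real libraries. The members and lists were chosen with earlier results of these data known. Named are all members, for each list the 3 largest called changes per direction in a comparison, 11 fixed pathway genes (1 of them not reported here), and the 3 genes most correlated with Il10, Socs3, and Cish, with selected values printed. Genes called in the blocked fit alone were named after their values were seen. The authors did not label the library sets, which were known from earlier examination of these counts. They pair 1 library of each condition, since residuals of the same set correlated at 0.449 or more. Alternatives were DESeq2 1.42.0, other scaling and filters, only the conditions compared, sets as a block, leaving out libraries or sets, no fold minimum, and the unadjusted p. Other assays of the study were not analysed here.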

Additional observations from a re-analysis of the deposited data

How the results depend on the processing

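With LPS against PBS, 9 members were called under every scaling and test tried, with or without the block, and 7 when genes needed 10 reads in every library, which leaves out Socs1 and Cish. With total counts, Il10rb turned to −0.42 with LPS against PBS and −0.18 with LPS + 3′SL against 3′SL (−0.42 and −0.19 with the block as well), and Sbno2 turned to 0.019 with LPS + 3′SL against LPS (0.013 with the block). Il10 in that comparison became 0.031 with the block and total counts, and 0.083 without set 3, with or without the block. For 3′SL against PBS, 1 member was called in the fits with the library sets as a block by edgeR, by DESeq2, and with total counts (Stat3), with the block and no set 3 (Il4ra), and at the unadjusted p (Socs3). For the interaction, 1 was called with the block in DESeq2, with the block and no set 3 (both Stat3), and at the unadjusted p (Socs3). With LPS + 3′SL against 3′SL, 5 were called without set 2, and Il4ra lost its call against PBS there as well (adjusted p = 0.0787, edgeR). The blocked fit changed no other member's call. The causes were not tested beyond the smaller number of libraries where sets were left out.

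Leaving out 1 library at a time, log2 differences of LPS + 3′SL from LPS ran from −0.47 to 0.43 for Il10, −0.32 to 0.072 for Il10rb, −0.93 to 1.45 for Il4ra, −0.60 to 0.22 for Socs1, −0.60 to 0.23 for Stat3, −0.69 to 0.25 for Bcl3, and −0.52 to 0.35 for Sbno2. Interaction estimates ran from −0.85 to 0.055 for Il10, −0.12 to 0.26 for Il10rb, −1.46 to 0.91 for Il4ra, and −0.88 to 0.0011 for Sbno2. All these fits had no block and kept the other libraries of the set, so differences between sets enter these ranges. Il4ra also lost its call with LPS + 3′SL against 3′SL without the LPS + 3′SL library of set 3 (1.33), and without either 3′SL library of sets 1 and 2. With all of set 1 left out and no block, this call was lost as well (log2 2.78, adjusted p = 0.0791, edgeR).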
